A study of Homo sapiens with 6 samples.

Results

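The genes described here are 10 members of the oxygen-sensing pathway of the hypoxia-inducible factors (HIF): the HIF subunits HIF1A, EPAS1 and ARNT, the negative regulators EGLN1, EGLN2, VHL and HIF1AN, and the target genes BNIP3, BNIP3L and VEGFA. They were picked by gene name from the all-gene expression table of AGS cells, and all 10 were among its 11846 genes. AGS is a human gastric adenocarcinoma cell line. The table holds 3 control and 3 knockdown libraries of poly(A) RNA, and the knockdown is directed at ANXA2P1, a processed pseudogene of the annexin A2 gene. The labels give the controls as AGS cells transfected with scr-shRNA and the knockdown samples as AGS cells treated with ANXA2P1 knockdown. The study's methods for this RNA sequencing instead name CRISPRi-Scramble and CRISPRi-ANXA2P1 in AGS cells, which is CRISPR interference with dCas9-KRAB. The labels and the methods thus differ, and the reagent is not settled. The medium of both groups held fetal bovine serum, and the labels name no hypoxic treatment. The libraries of a group are described as biological replicates. The protocols of control and knockdown samples are worded differently, and no source used here says whether their libraries were made together. Batch and knockdown thus cannot be told apart. ANXA2P1 itself was not analysed here.

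The table gives FPKM values, which are reads per gene divided by the length of its exons and by the depth of the library. It holds between 19600652 and 23592253 reads per library. Summed FPKM of 8 epithelial markers (EPCAM, KRT8, KRT18, KRT19, CLDN4, CDH17, MUC1 and ESRP1) ran from 1490 to 1590 in the controls and from 1560 to 1740 in the knockdown libraries. Of 6 fibroblast markers only COL1A1 was in the table, at 1.38 to 1.62 FPKM in the controls and 1.5 to 1.57 FPKM in the knockdown libraries, and none of 5 endothelial and 5 blood cell markers was in it.

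The pathway works through protein stability. In the presence of oxygen the EGLN prolyl hydroxylases modify the alpha subunits HIF-1α (HIF1A) and HIF-2α (EPAS1), VHL then binds the modified protein as the substrate receptor of a ubiquitin ligase, and the alpha subunit is degraded. HIF1AN, an asparaginyl hydroxylase, separately blocks the contact of the alpha subunit with coactivators. When oxygen is low the alpha subunit pairs with ARNT and binds promoters and enhancers at a short element whose core is ACGTG or GCGTG. Since much of this control acts on protein, mRNA levels alone do not give the activity of the pathway.

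Promoter sequence was looked up because BNIP3, EGLN1 and other members of the pathway are themselves known HIF targets. RefSeq promoters (GRCh38.p14, 250 bases before to 50 bases after the start site) were matched for 7 of the 10 genes: HIF1A, EPAS1, ARNT, EGLN1, EGLN2, HIF1AN and BNIP3. The motif ACGTG, searched on both strands, occurred in the promoters of BNIP3, EGLN1 and 1 of the EGLN2 start sites. The other EGLN2 start site held neither ACGTG nor GCGTG. The stretches that hold it are shown 5′ to 3′ on the strand of the gene, with capitals for ACGTG and also for GCGTG, on either strand.
BNIP3, chr10:131982014-131982073, minus strand: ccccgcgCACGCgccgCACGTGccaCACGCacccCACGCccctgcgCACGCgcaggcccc
EGLN1, chr1:231422283-231422312, minus strand: gggccgtggtgtACGTGcagagcgcgcaga
EGLN2, chr19:40799130-40799159, plus strand: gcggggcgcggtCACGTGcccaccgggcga
In BNIP3 and EGLN2 the match is the palindrome CACGTG, which counts as 2 overlapping matches because it reads ACGTG on each strand. At least 1 ACGTG was present in 21.4% of 35116 RefSeq promoters of the same length, and at least 2 in 8.82%. The BNIP3 stretch also holds 4 copies of GCGTG on the opposite strand, a number reached by 1.63% of promoters. GCGTG occurred 1 time each in the promoters of EPAS1 and of 1 of the HIF1A start sites, and 36.5% of promoters hold at least 1. These matches describe the letters in the window and do not show binding.

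The levels of the 10 genes spanned a wide range. HIF1A stood at a mean of 52.77 FPKM over the 6 libraries, above 94.1% of the genes in the table, and BNIP3 at 0.2235 FPKM, above 2.3% of them. Between these came VHL at 18.32, ARNT at 15.43, VEGFA at 14.69, EGLN1 at 13.42, BNIP3L at 11.97, HIF1AN at 8.997, EPAS1 at 5.53 and EGLN2 at 2.375 FPKM. HIF1A exceeded VHL, VHL exceeded ARNT, HIF1AN exceeded EPAS1, EPAS1 exceeded EGLN2 and EGLN2 exceeded BNIP3 in 6 of 6 libraries. Over the pooled libraries the neighbours from ARNT down to BNIP3L did not differ beyond their spread. ARNT against VEGFA, VEGFA against EGLN1 and EGLN1 against BNIP3L kept their order in 4 of 6 libraries. Within the knockdown group EGLN1 and BNIP3L were apart, at 13.52 ± 0.965 and 10.31 ± 0.847 FPKM (SD, n = 3). In the controls they overlapped, at 13.32 ± 0.462 and 13.63 ± 0.493 FPKM. BNIP3L was above HIF1AN in 5 of 6 libraries. In the controls their means were 13.63 ± 0.493 and 8.522 ± 0.0323 FPKM (SD, n = 3), apart beyond their spread, and in knockdown library 2 they were level at 9.394 and 9.395 FPKM. The place of BNIP3L in the pooled order thus mixes 2 groups with different means.

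The order rests in part on the length by which each gene was divided. The lengths in the FPKM values lay within 2% of the merged exons of all GENCODE transcripts for 7 of the 10 genes, which for VEGFA is 14431 bases, 4.08 times its longest protein-coding transcript. Divided by that transcript, VEGFA came to 59.98 FPKM, next to HIF1A at 68.71 and above VHL at 23.98. HIF1A was above VEGFA in 5 of 6 libraries on that scale. BNIP3 was again the lowest at 0.3882 FPKM. The genes whose length differed by more than 2% from the merged exons were EGLN1 (5381 against 7265 bases), VHL (4890 against 4213) and BNIP3L (4149 against 4307).

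**Figure D1:**
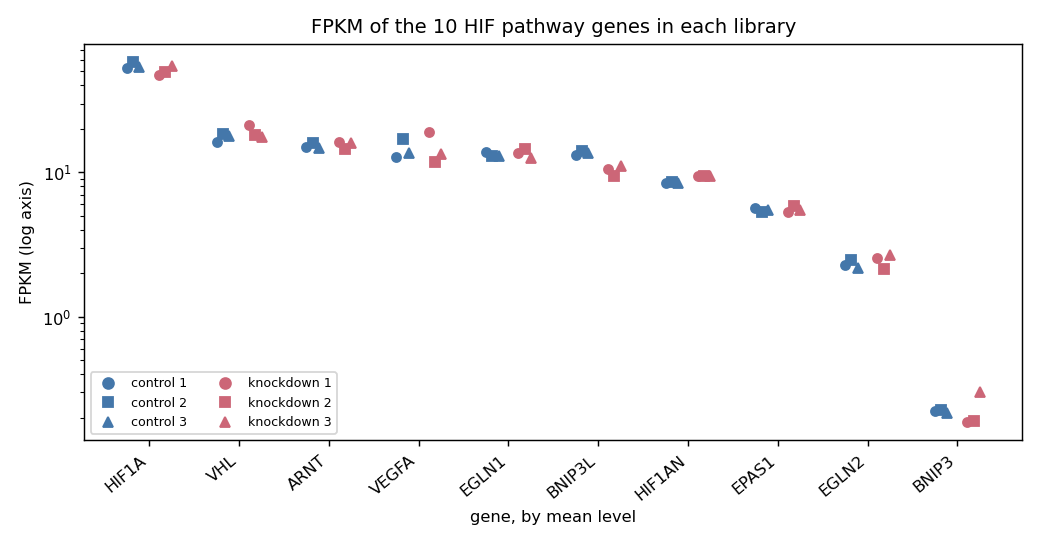
FPKM (log axis) of each of the 10 HIF pathway genes in the 3 control (blue) and 3 knockdown (red) libraries, with genes ordered by their mean and symbols marking the library number. HIF1A lies between 47.31 and 58.16 FPKM and BNIP3 between 0.1857 and 0.301 FPKM, and the BNIP3L points of the 2 groups are apart.

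The comparison asks what changed in AGS cells when ANXA2P1 was knocked down. BNIP3L was lower and HIF1AN was higher in all 3 knockdown libraries than in any control library, and the groups overlapped for the other 8 genes. The members were named with results of this contrast known, above all that BNIP3L was lower, so their differences are given as a description with no test. Of the 9 members (all but BNIP3) that passed the filter of a mean of at least 0.5 FPKM, 0 passed the adjusted p of 0.05 in limma's fit across all genes, where 0.129% of 10813 genes passed (0.111% lower and 0.0185% higher) and 1149 genes had an unadjusted p under 0.05. The count of all genes past the threshold, 14, was 256 without knockdown library 1, 5 without knockdown library 3, and 0 without any 1 of the other libraries. BNIP3L was among the 256, in a fit where 2.37% of all tested genes passed, and this too is given as a description. Groups that did not overlap were found for 2 of the 9 members and for 19.0% of all tested genes (9.13% lower and 9.86% higher). The log2 fold change, taken on log2(FPKM + 0.1) as knockdown minus control, was negative for 2 and positive for 7 of the 9, with a median of 0.02 beside 0.01 over all tested genes. In bulk RNA of this kind, fewer cells with a transcript and less of it per cell cannot be told apart.

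**Figure D2:**
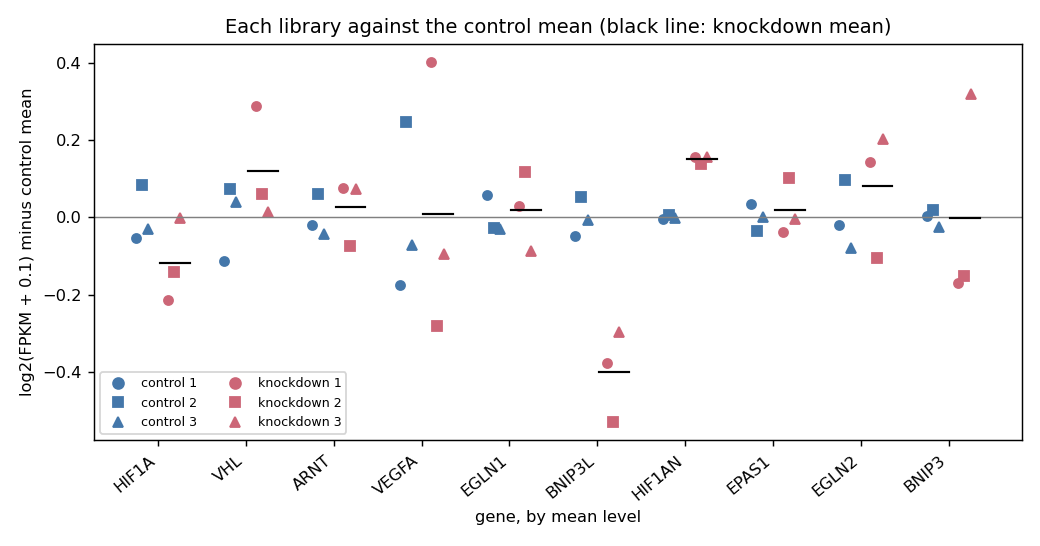
Each library's log2(FPKM + 0.1) minus the control mean for the 10 genes, ordered by mean level, with the knockdown mean as a black line. The BNIP3L knockdown libraries lie at −0.38, −0.53 and −0.30 and those of HIF1AN at 0.16, 0.14 and 0.16, while the VEGFA points of both groups spread from −0.28 to 0.40.

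Among the alpha subunits, HIF1A encodes the subunit found in nearly all cell types. Its level was 52.85, 58.16 and 53.79 FPKM in control libraries 1 to 3 and 47.31, 49.72 and 54.79 FPKM in knockdown libraries 1 to 3. Knockdown libraries 1 and 2 lay below every control, and knockdown library 3 lay within the control range. The means were 54.93 ± 2.83 and 50.61 ± 3.82 FPKM (SD, n = 3), a log2 fold change of −0.12 with a standard error (SE) of 0.0753. This value ran from −0.07 without knockdown library 1 to −0.18 without knockdown library 3, and was −0.04 with array weights. HIF1A spans chr14:61695513-61748259 (hg38, plus strand) and is overlapped by the antisense genes HIF1A-AS1 and HIF1A-AS2, which are not among the genes of the table.

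EPAS1 encodes HIF-2α, the subunit best known from endothelium and kidney. Its level was 5.625, 5.349 and 5.495 FPKM in the controls and 5.338, 5.894 and 5.478 FPKM in the knockdown libraries. The groups overlapped, with the lowest and the highest library both in the knockdown group. The log2 fold change was 0.02 (SE 0.0706), and −0.02 without knockdown library 2. HIF1A exceeded EPAS1 by between 8.44 and 10.9 times in each library, and by 7.78 to 10.0 times when each was divided by its longest protein-coding transcript. EPAS1 spans chr2:46293667-46386703 (plus strand).

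ARNT, also called HIF-1β, is the partner of both alpha subunits and of the aryl hydrocarbon receptor. It was at 15.08, 15.95 and 14.83 FPKM in the controls and at 16.12, 14.51 and 16.10 FPKM in the knockdown libraries. Knockdown libraries 1 and 3 were above the controls and knockdown library 2 was below them. The log2 fold change was 0.03 (SE 0.0687). The ratio of HIF1A to ARNT was 3.59 ± 0.0766 in the controls and 3.26 ± 0.278 in the knockdown libraries (SD, n = 3). ARNT spans chr1:150809705-150876768 (minus strand).

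The prolyl hydroxylases did not separate the groups. EGLN1 (PHD2), the main oxygen sensor for HIF-1α in most cells, was at 13.85, 13.05 and 13.05 FPKM in the controls and at 13.59, 14.45 and 12.52 FPKM in the knockdown libraries. Its log2 fold change was 0.02 (SE 0.0722), or −0.03 without knockdown library 2, and the highest and the lowest library were both knockdown libraries. EGLN2 (PHD1) was at 2.266, 2.468 and 2.171 FPKM in the controls and at 2.55, 2.13 and 2.662 FPKM in the knockdown libraries. Knockdown library 2 was here the lowest of the 6, and the log2 fold change was 0.08 (SE 0.108). It ran from 0.02 without knockdown library 3 to 0.17 without knockdown library 2, and was 0.23 with array weights. EGLN1 was above EGLN2 by 4.70 to 6.78 times in FPKM, and by 1.53 to 2.21 times on the longest protein-coding transcripts. For EGLN1 that transcript, at 7097 bases, is longer than the 5381 bases in the FPKM values, which lowers EGLN1 on that scale. EGLN1 spans chr1:231363751-231425044 (minus strand) and EGLN2 chr19:40798996-40808433 (plus strand). The readthrough gene RAB4B-EGLN2 and the protein-coding gene AC008537.1 overlap EGLN2 on the same strand and are not in the table. How reads shared with them were counted is not given. Their part in the EGLN2 level, and so in the ratio to EGLN1, was not tested.

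VHL was at 16.18, 18.44 and 17.98 FPKM in the controls and at 21.40, 18.26 and 17.68 FPKM in the knockdown libraries. Knockdown library 1 stood above the rest, and knockdown libraries 2 and 3 lay inside the control range. The means were 17.53 ± 1.2 and 19.11 ± 2.0 FPKM (SD, n = 3), a log2 fold change of 0.12 (SE 0.0899). It was 0.04 without knockdown library 1 and 0.06 without control library 1. VHL spans chr3:10141008-10152220 (plus strand).

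HIF1AN, also called FIH, was at 8.499, 8.559 and 8.509 FPKM in the controls and at 9.51, 9.395 and 9.509 FPKM in the knockdown libraries. All 3 knockdown libraries were above all 3 controls, and the libraries of each group lay very close together. The mean was 8.522 ± 0.0323 FPKM in the controls and 9.472 ± 0.0663 FPKM in the knockdown libraries (SD, n = 3), 11.1% higher. The log2 fold change was 0.15 (SE 0.058). This SE comes from limma, which takes part of its estimate of spread from the other genes.

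The spread of HIF1AN within groups was below what read counting alone gives. HIF1AN took 2790, 2668 and 2874 reads in the controls and 2672, 2974 and 2967 in the knockdown libraries. The coefficient of variation of its FPKM was 0.379% in the controls, where counting error alone is 1.90%, and 0.700% against 1.87% in the knockdown libraries. Libraries of one group were thus closer to each other than counting error alone would place them. HIF1AN spans chr10:100529072-100559998 (plus strand) and overlaps NDUFB8, a subunit gene of respiratory complex I on the opposite strand, so that without strand their shared reads cannot be told apart. NDUFB8 itself was at 1.84 ± 0.483 FPKM in the controls and 1.82 ± 0.157 FPKM in the knockdown libraries (SD, n = 3), a log2 fold change of 0.01 (SE 0.177). How shared reads were counted is not given, so these values do not bound the part of NDUFB8 in the HIF1AN reads.

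BNIP3L and BNIP3 encode related receptors in the outer mitochondrial membrane that bind LC3 and GABARAP proteins and so direct mitochondria to autophagy. BNIP3L, also called NIX, was at 13.17, 14.15 and 13.56 FPKM in the controls and at 10.47, 9.394 and 11.07 FPKM in the knockdown libraries. Every knockdown library was below every control, with knockdown library 2 the lowest. The means were 13.63 ± 0.493 FPKM in the controls and 10.31 ± 0.847 FPKM in the knockdown libraries (SD, n = 3), 0.756 of the control level. The log2 fold change of −0.40 (SE 0.0769) was the most negative of the 9. It rested on 1291, 1317 and 1368 reads in the controls and 878, 888 and 1031 reads in the knockdown libraries. BNIP3L lies on chromosome 8 on the plus strand. The protein-coding gene PNMA2 and the pseudogenes SDAD1P1 and AC011726.1 overlap it on the opposite strand. AC011726.2 and AC011726.3 overlap it on the same strand, and none of these genes is in the table. How reads shared with them were counted is not given, and their part in the BNIP3L level was not tested.

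BNIP3 was near the lower edge of detection. It was at 0.2226, 0.226 and 0.2163 FPKM in the controls and at 0.1857, 0.1896 and 0.301 FPKM in the knockdown libraries, from 28, 27 and 28 and from 20, 23 and 36 reads. Knockdown library 3 was the highest of the 6 and the other two knockdown libraries were the lowest. Summed over a group, 83 reads gave 0.221 FPKM in the controls (95% exact Poisson interval 0.176 to 0.275) and 79 reads gave 0.227 FPKM in the knockdown libraries (0.179 to 0.282), intervals that cover counting error only. No difference between the groups beyond counting error was seen at this depth, and BNIP3 was below the filter for the fit.

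The BNIP3 level is also uncertain for another reason. GENCODE annotates 39 pseudogenes named after BNIP3, against at most 1 for each of the other 9 genes, and none of them is in the table. No source used here says how reads that match several places were counted, and the part of this in the low BNIP3 level was not tested. BNIP3L exceeded BNIP3 by 36.8 to 62.7 times in FPKM, or 24.3 to 41.5 times on the longest protein-coding transcripts. BNIP3 spans chr10:131966455-131982013 (minus strand). The antisense genes AL162274.1 and AL162274.2 overlap it on the opposite strand and are not in the table. How reads shared with them were counted is not given. Their part in the BNIP3 level, and so in the ratio to BNIP3L, was not tested.

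VEGFA, which encodes the main growth factor for blood vessels, varied most between libraries of a group among the 9 genes that passed the filter. It was at 12.77, 17.15 and 13.73 FPKM in the controls and at 19.12, 11.87 and 13.51 FPKM in the knockdown libraries. Knockdown library 1 was the highest and knockdown library 2 the lowest of all 6. The means were 14.55 ± 2.30 and 14.83 ± 3.80 FPKM (SD, n = 3), with a log2 fold change of 0.01 (SE 0.178) that became −0.19 without knockdown library 1. The coefficient of variation was 15.8% in the controls and 25.7% in the knockdown libraries, where counting error gives 1.43% and 1.47%, so depth did not limit this value. VEGFA spans chr6:43770184-43786487 (plus strand).

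**Figure D3:**
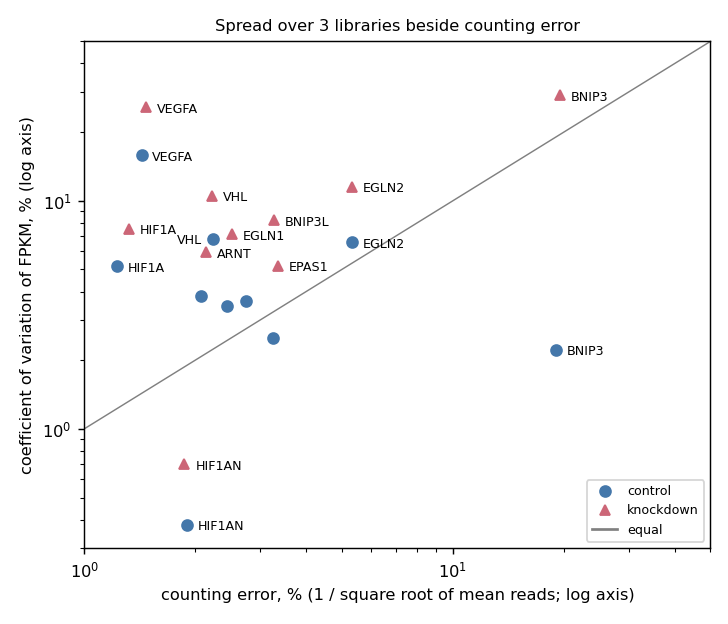
Coefficient of variation of FPKM over the 3 libraries of a group (log axis) against counting error, 1 divided by the square root of the mean reads (log axis), for each of the 10 genes, with a line where both are equal. VEGFA lies far above the line at 15.8% and 25.7%, while HIF1AN in both groups and BNIP3 and EPAS1 in the controls lie below it.

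The spread between libraries was set beside counting error for each member, and each coefficient of variation rests on 3 libraries. For HIF1A the coefficient of variation was 5.16% and 7.54% in controls and knockdown libraries, against 1.23% and 1.32% from counting. For BNIP3L it was 3.62% and 8.21%, against 2.75% and 3.28%. For BNIP3 in the knockdown libraries it was 29%, against 19.5% from counting. In all 10 genes the knockdown libraries spread more than the controls, as they did in 72.4% of the 10813 tested genes. Knockdown library 1 stood apart within its group: the chi-square per degree of freedom of its reads over genes was 22.5 and 36.7 against knockdown libraries 2 and 3, and 7.79 between those, where the control pairs gave 2.90 to 10.5.

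The genes whose profile over the 6 libraries was most like that of BNIP3L, among 10099 genes, were GPBP1L1, UHRF1BP1 and PRELID3B. Their log2 profiles, centred on their own means, differed from that of BNIP3L by a root mean square of 0.0392, 0.0564 and 0.0571, where the BNIP3L profile itself had a root mean square of 0.214. GPBP1L1 had a log2 fold change of −0.38, from 17.7 to 13.5 FPKM. The difference between the groups is part of the profile, so a fold change near that of BNIP3L follows from how these genes were picked. For HIF1A the nearest profiles were those of LPGAT1, SLMAP and NUCB2, at 0.0124, 0.0208 and 0.0220 beside a root mean square of 0.096 for HIF1A. This likeness over 6 libraries describes these libraries only.

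Around the 10 genes, other HIF regulators were measured as a group. Of 18 further regulators, 15 were in the table and tested, and 0 passed in either direction, with 8 negative and 7 positive log2 fold changes and a median of −0.02. EGLN3, the prolyl hydroxylase that is itself a HIF target, was above EGLN1 in 6 of 6 libraries, with an EGLN1 to EGLN3 ratio of 0.795 to 0.914 in FPKM. That ratio was not computed on transcript lengths. Control and knockdown libraries did not overlap for 3 of the 15, LIMD1, CITED2 and AHR, beside 19.0% of all tested genes. AHR, the aryl hydrocarbon receptor and another partner of ARNT, was at 6.59 ± 0.521 and 5.65 ± 0.254 FPKM (SD, n = 3), a log2 fold change of −0.22 (SE 0.0799, limma adjusted p = 0.384). CITED2, which competes with HIF for the coactivators CREBBP and EP300, was at 13.9 ± 0.795 and 12.8 ± 0.210 FPKM (limma adjusted p = 0.576), and LIMD1, a scaffold that joins EGLN1 to VHL, at 2.35 ± 0.0862 and 2.52 ± 0.108 FPKM (limma adjusted p = 0.731).

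Known HIF targets outside glycolysis did not move to one side. Of 33 such genes 26 were in the table and 19 passed the filter, and 0 passed the test, with 9 negative and 10 positive log2 fold changes and a median of 0.02. The groups did not overlap for 5 of the 19, beside 19.0% of all tested genes. WSB1, a ubiquitin ligase subunit, was at 7.42 ± 0.164 and 8.35 ± 0.164 FPKM (log2 fold change 0.17, SE 0.0611, limma adjusted p = 0.379). BHLHE40, a transcriptional repressor, was at 8.40 ± 0.588 and 7.55 ± 0.202 FPKM (limma adjusted p = 0.510), and the histone demethylase gene KDM4B at 5.10 ± 0.0259 and 5.49 ± 0.287 FPKM (limma adjusted p = 0.648). Among the 7 that missed the filter were ADM, ANGPTL4 and CA12.

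Of 19 HIF targets of glycolysis, 18 were tested and 1 fell, HK2, which phosphorylates glucose. HK2 went from 16.4 ± 0.930 to 11.3 ± 0.422 FPKM (SD, n = 3), a log2 fold change of −0.53 (SE 0.0679, limma adjusted p = 0.0406), lower in 3 of 3 knockdown libraries. The group had 7 negative and 11 positive log2 fold changes with a median of 0.01. The groups did not overlap for 2 of the 18, beside 19.0% of all tested genes. These were HK2 and SLC2A3, a glucose transporter that was at 13.9 ± 0.790 and 12.6 ± 0.590 FPKM (limma adjusted p = 0.528). The study examined HK2 in these cells, so its place in the list is not independent evidence. The HK2 call was lost without the trend and robust settings, with array weights, with median centring, with a replicate block, and without any 1 of the libraries other than knockdown library 1.

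Of 24 genes of mitophagy receptors, their partners and the turnover of BNIP3 proteins, 20 were tested and 0 passed, with 6 negative and 14 positive log2 fold changes and a median of 0.04. The groups did not overlap for 5 of the 20, beside 19.0% of all tested genes. BNIP2, found like BNIP3 as a binding partner of an adenoviral protein, was at 9.67 ± 0.762 and 8.03 ± 0.672 FPKM (log2 fold change −0.27, SE 0.0878, limma adjusted p = 0.326). PPTC7, a mitochondrial phosphatase that limits the BNIP3 and BNIP3L proteins, was at 7.87 ± 0.151 and 6.69 ± 0.413 FPKM (log2 fold change −0.23, SE 0.0704, limma adjusted p = 0.286). SQSTM1, the autophagy receptor p62, was at 52.0 ± 3.22 and 64.2 ± 6.05 FPKM (log2 fold change 0.30, SE 0.0860, limma adjusted p = 0.259). Of 9 VEGF family and receptor genes 3 were in the table and 2 were tested, with log2 fold changes of −0.07 and −0.03.

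**Figure D4:**
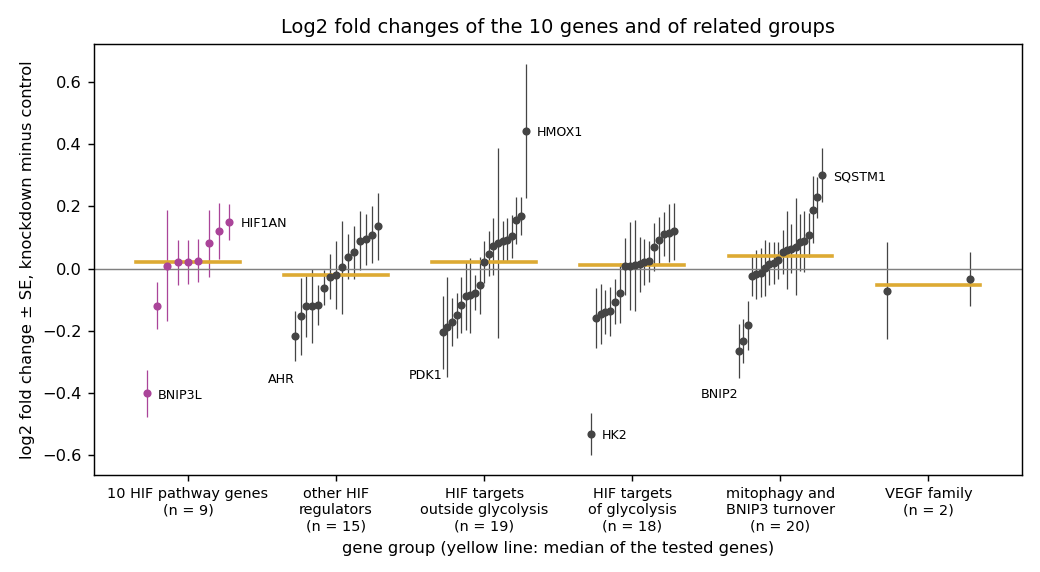
Log2 fold change (knockdown minus control on log2(FPKM + 0.1), bars are SE) of the 9 tested HIF pathway genes and of the tested genes of 5 related groups, with the median of each group in yellow. BNIP3L at −0.40 and HK2 at −0.53 lie below the other genes of their groups, and the group medians lie between −0.05 and 0.04.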

How the data were processed

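The labels name Bowtie2, TopHat and hg38 for the processing. The deposited table holds FPKM values per gene, made by the authors, for 6 libraries. Counter, annotation and strand setting: not given in the sources used here. Whole reads were recovered from the FPKM steps for 11846 of 11846 genes within 0.005 reads, and gave the counting errors. Genes with a mean of at least 0.5 FPKM (10813) were tested with limma 3.58.1 (R 4.3.3; trend and robust settings) on log2(FPKM + 0.1), with Benjamini-Hochberg adjustment over all of them and a threshold of 0.05. The steps were tested on simulated data. Gene lengths were compared with GENCODE 29. All 10 members are described. From the related lists, genes past the adjusted p were named, with up to 3 genes per list that had the largest difference among those of at least 1 FPKM without overlap. Members and lists were chosen with earlier results of these data known. Alternatives covered the pseudocount, filter, model settings, scaling, replicate block and left-out libraries.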

Additional observations from a re-analysis of the deposited data

How the results depend on the processing

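Limma's count of 14 genes past the threshold stayed between 14 and 21 under other pseudocounts, other filters, array weights, a common FPKM total and voom on the recovered reads. It was 0 without the trend and robust settings (1168 genes at an unadjusted p under 0.05) and 0 when libraries were centred on their medians (1163), and 0 to 256 with 1 library left out: 256 without knockdown library 1, 5 without knockdown library 3, and 0 without knockdown library 2 (823 at an unadjusted p under 0.05) or control library 1, 2 or 3 (697, 794 and 696). The 1 call in the lists around the members, HK2, was 0 without the trend and robust settings, with array weights, with median centring and with a replicate block, and 0 to 1 with 1 library left out. The calls of these lists at an unadjusted p under 0.05 numbered 7 in the fit as reported. Same-numbered libraries did not deviate together (correlations −0.338, −0.468 and −0.116), and the replicate block left 1 gene past the threshold. With 1 library left out, the log2 fold change ran from −0.45 to −0.34 for BNIP3L, 0.15 to 0.16 for HIF1AN, −0.18 to −0.07 for HIF1A, 0.04 to 0.17 for VHL, 0.02 to 0.17 for EGLN2, 0.00 to 0.08 for ARNT, −0.02 to 0.05 for EPAS1, −0.03 to 0.07 for EGLN1 and −0.19 to 0.15 for VEGFA. Array weights turned EPAS1 to −0.02 and EGLN1 to −0.04, and brought BNIP3L to −0.31. The 5 neighbouring levels in fixed order were 5 to 6 with 1 library left out and 6 on transcript lengths, an alternative chosen after seeing the data.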
